A study of Mus musculus with 12 samples.

Results

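The regions described here lie at the ends of the nuclear genes for the subunits of oxidative phosphorylation. Member genes were the protein-coding genes of RefSeq (mouse build GRCm38) whose symbols begin with Nduf, Uqcr, Cox4, Cox5, Cox6, Cox7, Cox8 or Atp5, together with Sdha, Sdhb, Sdhc and Sdhd, 96 genes in all. A member region was an accessible region of the deposited count table within 1 kb of either end of such a gene. This gave 130 member regions of 188262 in the table, at 90 of the 96 genes. Of these genes, 56 had 1 region, 28 had 2 and 6 had 3. The name promoter holds for most but not all members: 84 regions lay over an annotated start site (or over a gene end, where the strand was not known) and 46 lay elsewhere within the window. Another protein-coding gene had an end within 1 kb of 60 of the 130 regions, so those regions cannot be given to the member gene alone. The neighbouring gene is named below for only some of them. Values are in CPM, the counts of a region scaled to the size of its library with TMM factors.

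The 12 libraries are ATAC-seq libraries from male mice, made with Tn5 transposase, which inserts sequencing adapters where chromatin is open. Groups of 3 libraries each were KO MPP, WT MPP, KO LT-HSC and WT LT-HSC, where MPP are multipotent progenitors and LT-HSC the long-term haematopoietic stem cells from which they descend. KO mice carried the deleted X-linked Phf6 allele and 1 copy of a tamoxifen-activated Cre at Rosa26 (genotype Phf6-/Y Rosa26+/Cre-ERT2), and WT mice carried the floxed Phf6 allele with no Cre (Phf6f/Y Rosa26+/+). LT-HSC were taken 8 weeks after tamoxifen, from 3 separate animals of each genotype, with 20000 sorted cells given as the input. The labels used here do not state the age of the mice, how MPP were prepared, or whether MPP and LT-HSC of the same number share an animal. Replicates are taken as separate animals on the wording given for LT-HSC; if they are not, p-values measure only a technical spread. Loss of Phf6 and presence of Cre-ERT2 cannot be told apart, since every KO library and no WT library had both.

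Oxidative phosphorylation moves electrons from NADH and succinate to oxygen through complexes I to IV of the inner mitochondrial membrane and uses the resulting proton gradient to make ATP in complex V, the ATP synthase. Complex I (Nduf genes) oxidises NADH, complex II (Sdh genes) oxidises succinate, complex III (Uqcr genes) passes electrons to cytochrome c and complex IV (Cox genes) reduces oxygen. Most subunits are encoded in the nucleus, and the transcription factors NRF1, GABPA (of the ETS family) and YY1 are known to act at many of their promoters. Quiescent haematopoietic stem cells are known to rely little on respiration, and oxidative metabolism is known to increase as they become progenitors.

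RefSeq promoter windows, from 250 bases before to 50 bases after a start site (GRCm38.p6), were found for 78 of the 96 genes, in 83 windows. Motifs were searched on both strands. The NRF1 motif (GCGCA, any base, then GCGC) was in 24.1% of the 83 windows and 6.38% of 21263 windows of all protein-coding genes. The ETS motif CCGGAAG was in 22.9% against 11.6%, and the YY1 motif AAGATGGC in 13.3% against 3.05%. The SP motif GGGCGG was in 43.4% against 46.2% and the CCAAT motif in 42.2% against 38.2%. The windows of mitochondrial ribosomal protein genes (75 windows) also held the first 3 motifs more often than all genes, NRF1 in 13, ETS in 26 and YY1 in 12 of them. No motif string contains another, although matches can lie across each other in a sequence. The 7 windows below carry the findings that follow: Atp5l, Uqcrh and Ndufs7 were called higher in KO in both populations, and Ndufa4, Ndufc1, Cox6a1 and Uqcrc1 were among the strongest rises in MPP. Capitals mark NRF1, ETS and YY1 motifs, and an ETS motif on the opposite strand reads CTTCCGG.
Atp5l, chr9:44920693-44920992, minus strand: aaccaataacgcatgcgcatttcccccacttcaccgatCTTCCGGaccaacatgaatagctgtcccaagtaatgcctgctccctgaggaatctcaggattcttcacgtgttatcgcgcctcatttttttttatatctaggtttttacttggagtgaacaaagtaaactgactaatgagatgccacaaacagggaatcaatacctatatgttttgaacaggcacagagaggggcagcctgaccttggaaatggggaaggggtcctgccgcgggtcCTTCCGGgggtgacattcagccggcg
Uqcrh, chr4:116075021-116075320, minus strand: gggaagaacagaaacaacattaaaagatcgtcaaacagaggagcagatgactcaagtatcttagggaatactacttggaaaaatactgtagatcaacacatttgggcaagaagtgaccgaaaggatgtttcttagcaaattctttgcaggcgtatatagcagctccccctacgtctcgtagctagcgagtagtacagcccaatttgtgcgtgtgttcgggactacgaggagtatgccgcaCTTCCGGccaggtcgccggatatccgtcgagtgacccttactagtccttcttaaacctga
Ndufs7, chr10:80249199-80249498, plus strand: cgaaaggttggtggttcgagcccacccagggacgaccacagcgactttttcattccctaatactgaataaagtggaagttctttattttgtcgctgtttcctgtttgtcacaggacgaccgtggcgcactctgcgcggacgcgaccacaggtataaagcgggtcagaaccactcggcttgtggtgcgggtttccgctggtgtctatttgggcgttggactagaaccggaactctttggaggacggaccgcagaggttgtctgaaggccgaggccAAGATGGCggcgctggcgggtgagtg
Ndufa4, chr6:11907401-11907700, minus strand: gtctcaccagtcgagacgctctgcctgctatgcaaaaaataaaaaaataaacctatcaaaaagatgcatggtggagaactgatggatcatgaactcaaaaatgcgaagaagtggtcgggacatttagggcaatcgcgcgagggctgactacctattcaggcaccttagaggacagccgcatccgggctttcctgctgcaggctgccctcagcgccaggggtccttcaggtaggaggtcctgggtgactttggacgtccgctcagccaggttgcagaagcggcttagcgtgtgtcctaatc
Ndufc1, chr3:51408906-51409205, minus strand: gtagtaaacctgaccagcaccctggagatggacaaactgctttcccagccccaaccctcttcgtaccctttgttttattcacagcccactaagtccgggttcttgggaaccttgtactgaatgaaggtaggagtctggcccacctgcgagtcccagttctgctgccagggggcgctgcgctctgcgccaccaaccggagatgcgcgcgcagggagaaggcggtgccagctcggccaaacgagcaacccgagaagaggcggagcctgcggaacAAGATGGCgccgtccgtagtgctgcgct
Cox6a1, chr5:115348909-115349208, minus strand: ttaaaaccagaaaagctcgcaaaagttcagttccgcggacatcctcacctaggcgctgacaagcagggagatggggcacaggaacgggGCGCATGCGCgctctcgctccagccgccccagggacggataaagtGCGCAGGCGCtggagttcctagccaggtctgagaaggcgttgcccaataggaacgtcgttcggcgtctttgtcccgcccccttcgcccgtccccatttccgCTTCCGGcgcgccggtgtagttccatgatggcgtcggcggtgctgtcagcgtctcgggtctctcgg
Uqcrc1, chr9:108936398-108936697, plus strand: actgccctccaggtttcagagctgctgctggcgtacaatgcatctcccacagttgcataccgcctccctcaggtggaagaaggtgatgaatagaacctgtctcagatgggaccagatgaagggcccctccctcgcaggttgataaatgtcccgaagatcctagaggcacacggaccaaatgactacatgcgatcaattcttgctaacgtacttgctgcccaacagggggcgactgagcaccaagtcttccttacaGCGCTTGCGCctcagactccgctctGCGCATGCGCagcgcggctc
Cox6a1 and Uqcrc1 hold NRF1 motifs at 2 places each, one of which in each gene reads the same on both strands. Atp5l, Uqcrh and Cox6a1 hold ETS motifs, Ndufs7 and Ndufc1 hold a YY1 motif just after the start site, and Ndufa4 holds none of these 3 motifs. A match is a description of the letters and not evidence of binding.

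Total counts ran from 22665988 to 48547234 per library. Members took 71935 to 163441 counts per library, and the median member had 472 to 1096.5. Replicates had Pearson's r of 0.971 to 0.982 on log2 CPM over all regions. The region at one end of Phf6 (chrX:52912011-52912448) held 29.7, 27.7 and 28.4 CPM in KO MPP, against 32.4, 31.2 and 30.6 CPM in WT MPP, and 28.8, 27.0 and 26.5 CPM in KO LT-HSC, against 25.4, 27.3 and 26.9 CPM in WT LT-HSC. Neither comparison was called (edgeR adjusted p = 0.195 in MPP and 0.724 in LT-HSC). A weaker second Phf6 region (chrX:52912981-52913382) held 1.21 to 1.75 CPM in KO MPP and 0.917 to 1.18 CPM in WT MPP. In LT-HSC it held 1.43 to 2.20 CPM in KO and 1.07 to 1.29 CPM in WT. Its log2 fold changes of 0.63 ± 0.21 in MPP and 0.65 ± 0.21 in LT-HSC were not called (edgeR adjusted p = 0.0552 and 0.0662). The labels do not say whether the deleted part covers these regions, so they do not check the deletion. The labelled populations could be told apart at their marker genes: of 151 regions at 7 LT-HSC genes 106 were called lower and 8 higher in WT MPP than in WT LT-HSC, and of 69 regions at 6 MPP genes 40 were called higher and 15 lower, where 34.6% of all regions were higher and 35.2% lower. Regions at defining genes of T, B, NK, myeloid, erythroid, megakaryocyte and endothelial cells were also open to some degree, and Cd8a (T cell) and Ncr1 (NK cell) had no region. In bulk samples, fewer cells of a type and less open chromatin per cell cannot be told apart.

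Members were open chromatin of high level. The median member held 49.3 CPM per kb over the 12 libraries, against 13.3 for all regions within 1 kb of a protein-coding gene end (24508 regions, called gene ends here) and 3.55 for all regions. Members over a start site had a median of 63.4 CPM per kb, and the other members 6.04. Among start-site regions the median per complex was 60.7 CPM per kb for complex I subunits, 65.1 for its assembly factors, 70.7 for complex II, 74.4 for complex III, 60.5 for complex IV and 70.0 for complex V. These medians lie close together next to the range within each complex, which for complex I subunits ran from 17.3 to 160 CPM per kb. The highest member per length was Atp5g1, a gene for the membrane c subunit of ATP synthase (chr11:96075585-96076108), with 199 CPM per kb. Ndufaf8, a complex I assembly factor, had 178, Ndufs8, an iron-sulfur subunit of complex I, 160, Uqcrq of complex III 152, Cox8a of complex IV 150 and Sdhb, the iron-sulfur subunit of complex II, 104 CPM per kb. The lowest of the 84 regions over a start site or gene end were at Cox6c (14.6) and Cox7b (15.0), both of complex IV.

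All members together took a larger share of the counts in KO than in WT and in MPP than in LT-HSC. The share was 0.359%, 0.354% and 0.364% in KO MPP (0.359% ± 0.00500, SD, n = 3) and 0.348%, 0.337% and 0.328% in WT MPP (0.338% ± 0.0101). It was 0.318%, 0.313% and 0.317% in KO LT-HSC (0.316% ± 0.00297) and 0.298%, 0.302% and 0.298% in WT LT-HSC (0.299% ± 0.00212). The 4 groups did not overlap. The share of all gene ends was 41.0% to 41.4% of counts in KO MPP, 39.2% to 41.0% in WT MPP, 39.2% to 39.6% in KO LT-HSC and 37.8% to 38.9% in WT LT-HSC; KO and WT overlapped in MPP, where 1 WT library lay above 1 KO library, and did not overlap in LT-HSC. Within the gene-end counts the member share was still apart: 0.863% to 0.880% in KO MPP, 0.837% to 0.849% in WT MPP, 0.798% to 0.809% in KO LT-HSC and 0.776% to 0.788% in WT LT-HSC. With 3 libraries against 3 an exact permutation test cannot give a p under 0.1, so no test of the shares was made. A principal component analysis of the members put 74.6% of their variance on a component that parted MPP from LT-HSC and 10.2% on one that parted KO from WT in both populations.

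**Figure D1:**
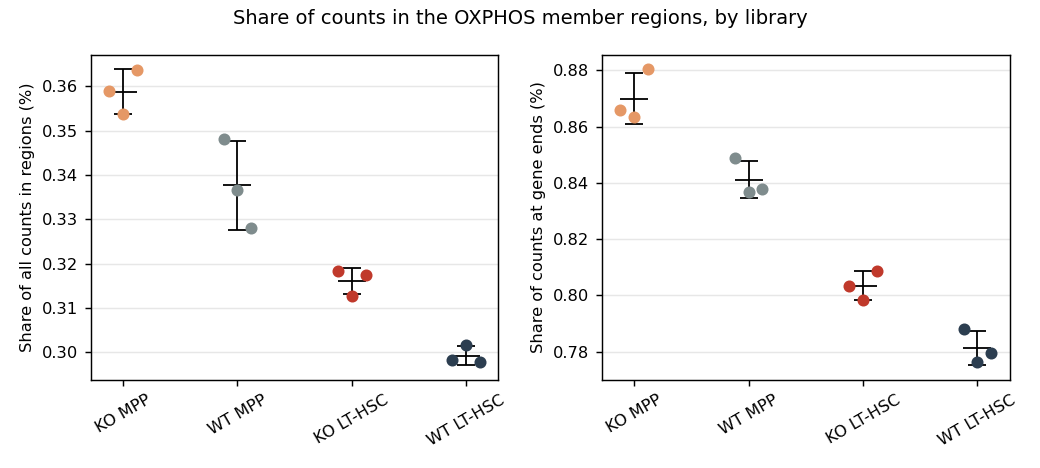
Share of counts in the 130 member regions for each library, as a percentage of all counts in regions (left) and of counts at gene ends (right), with points for libraries and bars for the mean and SD of 3 libraries. Axes do not start at 0; on both scales every KO library lies above every WT library of the same population and every MPP library above every LT-HSC library.

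The comparison of KO with WT LT-HSC asks which members change in stem cells that lack Phf6. Of the 129 members that passed the filter on low counts, 26 were called higher in KO LT-HSC and 1 was called lower (edgeR's quasi-likelihood test, Benjamini-Hochberg adjusted p under 0.05 over 186373 regions). That is 20.2% higher, against a background of 3.27% higher over all regions (1.47% lower) and 8.20% higher at gene ends. The 3 KO libraries lay above all 3 WT libraries at 60 members (46.5%), against 13.4% of all regions and 24.9% of gene ends. The median log2 fold change was 0.13 for members, 0.06 for gene ends and -0.00 for all regions. Members ranged from -0.63 to 0.71, with 103 of 129 above 0. Gene ends of at least 10 CPM, a level chosen after seeing the data, lay nearer to the members. At that level KO lay above WT without overlap at 59.8% of 87 members and 38.9% of 10400 gene ends. The median log2 fold changes there were 0.13 and 0.09. Called members came from all 5 complexes: 8 of 55 regions of complex I subunits, 2 of 14 of its assembly factors, 1 of 5 of complex II, 5 of 14 of complex III, 4 of 17 of complex IV and 6 of 24 of complex V were higher.

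The lowest adjusted p was in complex V. Atp5l, which encodes subunit g of the membrane part of ATP synthase, had a start region (chr9:44920315-44921212) with 25.1, 23.1 and 21.5 CPM in KO LT-HSC, against 17.3, 17.8 and 14.5 CPM in WT LT-HSC. The groups did not overlap, and the log2 fold change was 0.50 ± 0.08 (SE; edgeR adjusted p = 0.000769). Atp5b, the catalytic beta subunit (chr10:128082959-128083443), held 61.5, 62.1 and 63.4 CPM in KO and 53.3, 50.8 and 53.6 CPM in WT LT-HSC (0.25 ± 0.05, edgeR adjusted p = 0.00757). A second region at the other end of Atp5b, also within 1 kb of Baz2a, rose by 0.32 ± 0.08 on the log2 scale. Atp5a1, the alpha subunit, held 37.2, 36.4 and 35.4 CPM in KO and 30.1, 29.0 and 28.1 CPM in WT LT-HSC (0.32 ± 0.06, edgeR adjusted p = 0.00282); the end of Haus1 lies within 1 kb. Of the 3 genes for the c subunit, Atp5g1 rose by 0.20 ± 0.05, and Atp5g2 rose at a weak region beside its start (chr15:102671673-102672166, 0.53 ± 0.12) of 5.89, 5.84 and 7.62 CPM in KO and 4.85, 4.19 and 4.26 CPM in WT LT-HSC. The strong start region of Atp5g2 and that of Atp5g3 were not called, with 50.6 to 52.1 CPM in KO and 49.5 to 55.9 CPM in WT LT-HSC at Atp5g2.

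In complex III, 4 of 8 genes had a region called higher. Uqcr10, a small subunit (chr11:4704184-4704841, beside Zmat5), held 50.3, 48.6 and 44.9 CPM in KO and 38.1, 37.3 and 37.7 CPM in WT LT-HSC (0.35 ± 0.06, edgeR adjusted p = 0.00100). Uqcrh, the hinge protein between cytochromes c1 and c (chr4:116074894-116075607, beside Lrrc41), held 63.5, 59.2 and 59.9 CPM in KO and 48.0, 51.9 and 47.5 CPM in WT LT-HSC (0.31 ± 0.06, edgeR adjusted p = 0.00288). Both pairs of groups stood apart. A weaker region beside the Uqcrh start rose by 0.47 ± 0.12, and Uqcrq rose by 0.26 ± 0.06. Uqcrc2, a core protein, rose by 0.71 ± 0.17 at a weak region of 2.34, 3.15 and 2.58 CPM in KO and 1.41, 1.83 and 1.68 CPM in WT LT-HSC, while its strong region of 35.5 to 41.3 CPM in KO and 38.0 to 39.2 CPM in WT LT-HSC had a log2 fold change of -0.01 ± 0.06.

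Complex I subunits called higher in KO LT-HSC were Ndufs1 and Ndufs7, which carry iron-sulfur clusters, Ndufs4, and the accessory subunits Ndufa2, Ndufa12, Ndufb1, Ndufb3 and Ndufb11. Their log2 fold changes ran from 0.21 at Ndufa2 to 0.33 at Ndufs4. Ndufs1 lies beside Eef1b2, Ndufa2 beside Ik, Ndufb1 beside Cpsf2, Ndufb3 beside Fam126b and Ndufb11 beside Rbm10. Ndufs7 (chr10:80248950-80249604) held 44.5, 42.7 and 44.8 CPM in KO and 38.7, 38.0 and 32.6 CPM in WT LT-HSC (0.27 ± 0.07, edgeR adjusted p = 0.0230). The assembly factors Ndufaf3 (0.28 ± 0.06, beside Dalrd3) and Ndufaf1 (0.33 ± 0.10) also rose. The single lower member was a weak region at the far end of Ndufa13, beside Yjefn3 (chr8:69893838-69894297), with 1.79, 1.45 and 1.07 CPM in KO and 2.21, 2.11 and 2.58 CPM in WT LT-HSC (-0.63 ± 0.18, edgeR adjusted p = 0.0353). In complex IV, Cox8a (0.22 ± 0.06), Cox7a2l, which helps complexes III and IV assemble together (0.29 ± 0.07), Cox4i2 (0.35 ± 0.11) and Cox6b2 (0.24 ± 0.07) rose. A weaker region of Cox4i2 was not called (-0.26 ± 0.21). In complex II the call was at the far end of Sdhb (0.39 ± 0.12, 7.40, 7.39 and 8.60 CPM in KO and 6.42, 6.38 and 4.89 CPM in WT LT-HSC), and the Sdhb start region had a log2 fold change of 0.04 ± 0.06. Nearest to 0 among members of above-median level were Ndufa6, Uqcrc2 and Ndufaf7, with log2 fold changes from -0.01 to 0.01.

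The number of calls in LT-HSC depended on single libraries and on how gene ends were treated. The 27 calls became 14, 10 and 10 without KO LT-HSC 1, 2 or 3, and 15, 17 and 16 without WT LT-HSC 1, 2 or 3, and the calls at Atp5l, Atp5a1, Atp5b (start), Uqcr10, Uqcrh (start) and Ndufaf3 held whichever library was left out. Those at Uqcr10 and Atp5a1 held under every setting run, and that at Atp5l was lost with the gene-end share in the model. Fitting each library's gene-end share alongside genotype left 3 calls, a loess offset 9 and total-count scaling 14; the median log2 fold change of the members stayed above 0 in each, at 0.07, 0.05 and 0.07. Calls over all regions also fell when one of these libraries was left out. The 6093 higher and 2741 lower became 3308 and 1347, 2571 and 833, and 3355 and 1217 without KO LT-HSC 1, 2 or 3. Without WT LT-HSC 1, 2 or 3 they became 3477 and 1484, 3771 and 1520, and 4595 and 1991. The gene-end share left 1382 and 461, the loess offset 3506 and 2644, and total-count scaling 3214 and 3894.

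The same comparison in MPP gave 22 members called higher in KO and 0 called lower, of 129 (DESeq2 called 21). An unadjusted p under 0.05, in either direction, was found at 48 of 129 members, 44912 of 186373 regions and 7637 of 24490 gene ends. At a level of at least 10 CPM it was found at 36 of 87 members and 4035 of 10400 gene ends. Higher calls made up 17.1% of members, against 5.12% of all regions (3.59% lower) and 11.4% of gene ends. KO MPP libraries lay above all WT MPP libraries at 62 members (48.1%), against 14.4% of all regions and 25.9% of gene ends, and the median log2 fold change was 0.12. The higher calls were 8 of 55 regions of complex I subunits, 2 of 14 of assembly factors, none of 5 of complex II, 4 of 14 of complex III, 2 of 17 of complex IV and 6 of 24 of complex V. In complex II, 3 of 5 regions had an unadjusted p under 0.05 in edgeR and DESeq2 called none.

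In complex V the weak region beside the Atp5g2 start held 5.69, 5.85 and 6.42 CPM in KO MPP, against 3.38, 3.25 and 3.18 CPM in WT MPP, with a log2 fold change of 0.87 ± 0.12 (edgeR adjusted p = 6.40e-05). Atp5l held 31.6, 30.4 and 31.6 CPM in KO and 22.1, 23.8 and 19.3 CPM in WT MPP (0.52 ± 0.08, edgeR adjusted p = 0.000201). Atp5pb, the b subunit of the peripheral stalk, held 49.3, 48.9 and 54.3 CPM in KO and 43.7, 40.6 and 40.0 CPM in WT MPP (0.29 ± 0.06, edgeR adjusted p = 0.00314); Wdr77 starts within 1 kb. None of these KO and WT values overlapped. Both Atp5b regions rose as well (0.19 ± 0.05 and 0.25 ± 0.07), and so did a weak region beside Atp5h, another stalk subunit (0.52 ± 0.16), whose start region had a log2 fold change of -0.01 ± 0.06.

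Among complex I subunits, Ndufs7 held 44.7, 47.2 and 50.3 CPM in KO and 40.4, 34.4 and 34.6 CPM in WT MPP (0.38 ± 0.07, edgeR adjusted p = 0.00101). Ndufs1 (chr1:63176557-63177048), within 1 kb of the translation elongation factor gene Eef1b2, held 45.6, 46.3 and 48.6 CPM in KO and 39.0, 37.9 and 30.5 CPM in WT MPP (0.38 ± 0.07, edgeR adjusted p = 0.00118). Ndufa12 held 38.1, 37.0 and 38.9 CPM in KO and 31.3, 31.0 and 29.4 CPM in WT MPP (0.31 ± 0.06, edgeR adjusted p = 0.00195). The WT MPP 3 library was the lowest of all 6 at Ndufs1 and Ndufa12, and the 2 other WT libraries also lay below KO. Ndufa10, Ndufa13, Ndufb1, Ndufb3 and Ndufb11 rose by 0.21 to 0.32 on the log2 scale, and the assembly factors Ndufaf1 and Ndufaf6 by 0.38 ± 0.10 and 0.26 ± 0.08. In complex III, Uqcrh held 73.3, 75.5 and 72.8 CPM in KO and 65.5, 59.9 and 55.8 CPM in WT MPP (0.29 ± 0.06, edgeR adjusted p = 0.00259), and Uqcrq, Uqcr10 and a weak region of Uqcr11 rose too. In complex IV the calls were at Cox6b1 (0.24 ± 0.08) and Cox6b2 (0.23 ± 0.07), genes for the somatic and testis forms of one subunit.

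The 22 MPP calls became 13 and 12 without WT MPP 2 or 3, and 9 and 8 without KO MPP 2 or 3. Those at Atp5l, Atp5g2, Atp5pb, Ndufs1, Ndufs7, Ndufa12 and Uqcrh held whichever library was left out; 3 calls were left with the gene-end share in the model, 12 with the loess offset (11 higher, 1 lower) and 13 when gene ends were fitted alone (10 higher, 3 lower). Over all regions the 9542 higher and 6688 lower calls became 5970 and 3773 without WT MPP 2 and 7072 and 5076 without WT MPP 3. Without KO MPP 2 they became 4262 and 2472, and without KO MPP 3 4198 and 2237. The gene-end share left 3304 and 2310, and the loess offset 8413 and 7736. With gene ends fitted alone, 1904 gene ends were higher and 2464 lower, against 2788 and 587 in the main model. Some marker sums differed with KO: the summed level of 10 erythroid regions (4 genes) was 73.7 to 76.8 CPM in KO and 59.5 to 67.1 CPM in WT MPP, and that of 10 megakaryocyte regions (3 genes) 149 to 157 CPM in KO and 128 to 142 CPM in WT MPP. In each list 3 of 10 regions were called higher in KO MPP (5.12% of all regions), with log2 fold changes of -0.44 to 1.07 and -0.17 to 0.35. In LT-HSC, 151 regions at LT-HSC genes summed to 711 to 713 CPM in KO and 653 to 662 CPM in WT, and 69 regions at MPP genes to 357 to 364 CPM in KO and 335 to 347 CPM in WT. Erythroid sums there were 80.3 to 86.5 CPM in KO and 75.5 to 80.3 CPM in WT. Endothelial sums were 146 to 154 CPM in KO and 137 to 145 CPM in WT. The part of these in the member results was not tested.

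**Figure D2:**
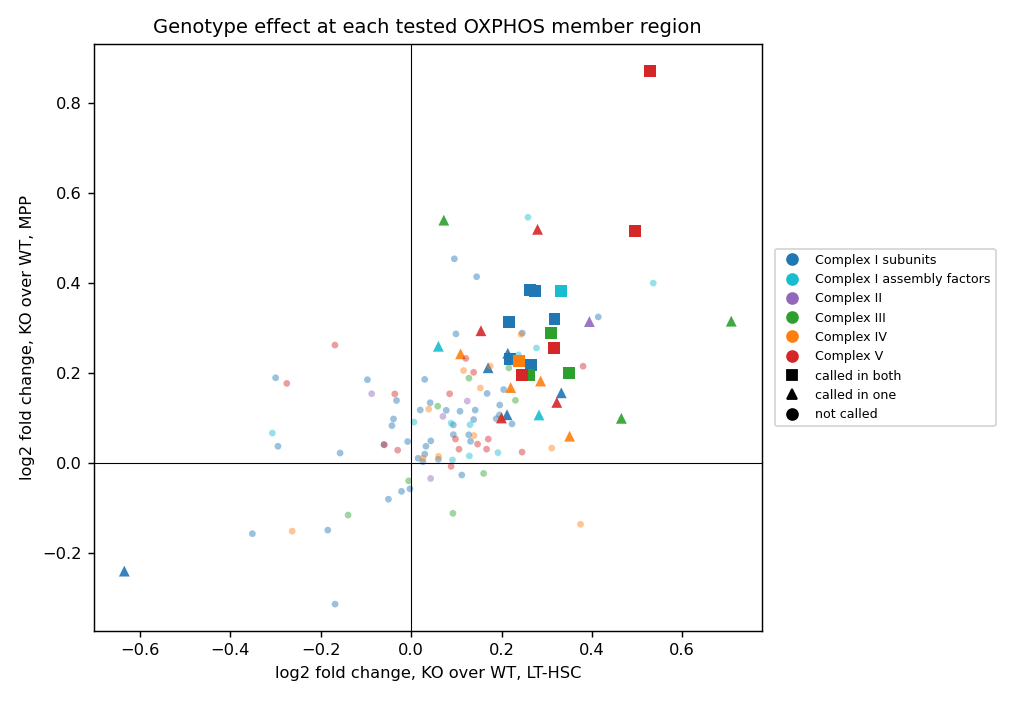
Log2 fold change of KO over WT in LT-HSC (x axis) and in MPP (y axis) for the 129 tested members, coloured by complex, with squares for regions called in both populations, triangles for regions called in one and circles for the rest. Most points lie above and to the right of 0; the region beside the Atp5g2 start and the Atp5l start region are the 2 squares farthest out.

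The 2 genotype comparisons share no library. They may share animals, since the labels do not state whether MPP and LT-HSC of the same number came from the same mouse. Of the members called higher, 15 were called in both, which is 57.7% of the LT-HSC calls and 68.2% of the MPP calls. These were the start regions of Atp5l, Atp5b, Uqcrh, Uqcr10, Ndufs7, Ndufa12, Ndufb1, Ndufb3, Ndufb11, Ndufaf1 and Cox6b2, regions over an end of Uqcrq and Ndufs1, whose strand was not known, the far end of Atp5b and the weak region beside Atp5g2. The overlap of calls was not counted for all regions or gene ends, so these shares are not shown to be particular to the members. The interaction of genotype and population was called at 0 of 129 members (edgeR; DESeq2 also called 0), against 0.00805% of all regions. An unadjusted p under 0.05 was found at 7 members (5.43%, against 7.56% of all regions), and the lowest adjusted p was 0.503. No member was therefore shown to respond differently to genotype in MPP and LT-HSC, which does not show that the responses were equal: at Atp5l the difference of the 2 log2 fold changes was 0.02 ± 0.12 (SE).

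**Figure D3:**
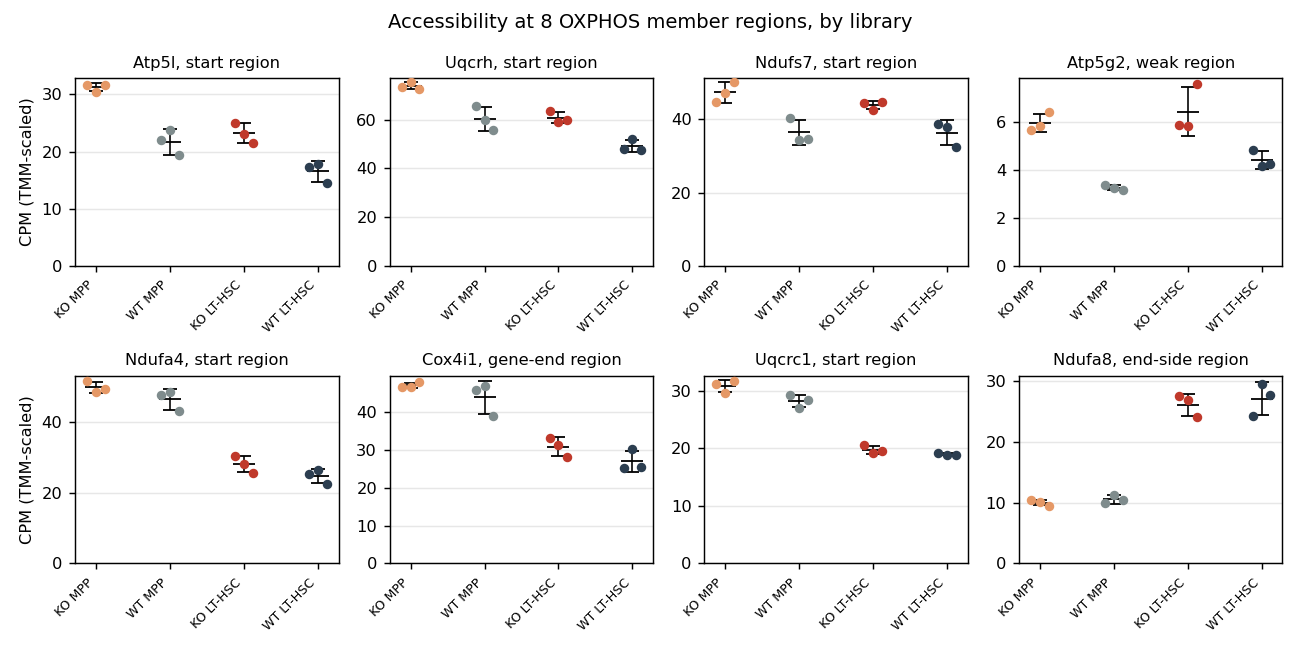
CPM in each library at 8 member regions, with points for libraries and bars for the mean and SD of 3 libraries per group; each panel starts at 0. Atp5l, Uqcrh, Ndufs7 and the weak Atp5g2 region are higher in KO than in WT in both populations; Ndufa4, Cox4i1 and Uqcrc1 are higher, and the region past the end of Ndufa8 is lower, in MPP than in LT-HSC.

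Between populations the members differed far more than between genotypes. In WT, 68 of 129 members were called higher and 15 lower in MPP than in LT-HSC (52.7% and 11.6%), against 34.6% higher and 35.2% lower over all regions. In KO, 67 were called higher and 14 lower (51.9% and 10.9%), against 33.3% and 34.4% over all regions. Of all gene ends 32.6% were higher and 35.5% lower in WT, and their median log2 fold change was -0.02, against 0.19 for members. Gene ends of at least 10 CPM, the level of 87 of the 129 members, did lean upward, with 45.2% higher, 20.7% lower and a median of 0.12, against 59.8%, 6.90% and 0.24 for members of that level. Of the higher calls 60 were made in both genotypes (89.6% of those in KO, 88.2% of those in WT), and of the lower calls 12 (85.7% and 80.0%). This overlap was not counted for all regions or gene ends. Among complex I subunits 32 of 55 regions were higher (58.2%) and 3 lower in WT, and 34 higher and 3 lower in KO; differences between complexes were not tested. In WT the counts were 6 higher and 3 lower of 14 for assembly factors, 2 and 0 of 5 for complex II, 7 and 3 of 14 for complex III, 8 and 3 of 17 for complex IV, and 13 and 3 of 24 for complex V.

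The largest rise among members of above-median level was at Ndufa4 (chr6:11907299-11907929, beside Phf14), named for complex I and now placed with complex IV. Counted here with complex I by its symbol, it held 51.7, 48.8 and 49.4 CPM in KO MPP, against 30.5, 28.3 and 25.8 CPM in KO LT-HSC, and 47.7, 48.8 and 43.3 CPM in WT MPP, against 25.2, 26.6 and 22.6 CPM in WT LT-HSC. The log2 fold change was 0.82 ± 0.07 in KO and 0.91 ± 0.07 in WT (edgeR adjusted p = 8.91e-12 and 5.88e-13). Every MPP library lay above every LT-HSC library. Ndufc1, a small accessory subunit of complex I (chr3:51408753-51409224), held 34.4, 30.9 and 34.2 CPM in KO MPP and 23.3, 22.4 and 22.3 CPM in KO LT-HSC, and 34.0, 30.5 and 29.1 CPM in WT MPP and 19.7, 19.0 and 19.6 CPM in WT LT-HSC (0.55 ± 0.07 in KO, 0.68 ± 0.07 in WT). Ndufa10, Ndufa13, Ndufb6, Ndufb7 and Ndufb10 also stood among the largest rises, with log2 fold changes of 0.49 to 0.54 in KO and 0.37 to 0.53 in WT.

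In complex IV, Cox4i1, the ubiquitous form of subunit 4 (chr8:120668021-120668513, with Emc8 and Gm27021 within 1 kb), held 46.7, 46.7 and 47.9 CPM in KO MPP and 33.1, 31.3 and 28.1 CPM in KO LT-HSC. In WT it held 45.9, 46.9 and 38.9 CPM in MPP and 25.2, 30.2 and 25.4 CPM in LT-HSC (0.61 ± 0.08 in KO, 0.71 ± 0.08 in WT). Cox6a1, the liver-type form of subunit 6a (chr5:115348825-115349247), rose by 0.56 ± 0.07 in KO and 0.63 ± 0.07 in WT. In complex III, Uqcrc1, a core protein (chr9:108936447-108936853), held 31.1, 29.6 and 31.7 CPM in KO MPP and 20.5, 19.1 and 19.6 CPM in KO LT-HSC, and 29.3, 27.1 and 28.4 CPM in WT MPP and 19.1, 18.9 and 18.9 CPM in WT LT-HSC (0.64 ± 0.07 in KO, 0.57 ± 0.07 in WT). These regions stood clear of overlap in both genotypes. Sdhb of complex II rose by 0.27 ± 0.06 in KO and 0.34 ± 0.06 in WT, and Uqcrq by 0.19 ± 0.06 and 0.26 ± 0.06.

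Falls were fewer. The lowest p in either genotype was at a region 284 bp past the end of Ndufa8 (chr2:36035364-36036040). It held 10.4, 10.1 and 9.51 CPM in KO MPP and 27.5, 26.9 and 24.1 CPM in KO LT-HSC, and 9.92, 11.3 and 10.5 CPM in WT MPP and 24.2, 29.5 and 27.7 CPM in WT LT-HSC (-1.39 ± 0.09 in KO, -1.36 ± 0.08 in WT, edgeR adjusted p = 3.30e-15 and 2.25e-15). The start region of Ndufa8 held 18.9 to 23.7 CPM in MPP and 19.7 to 24.0 CPM in LT-HSC. Ndufb2, an accessory subunit of complex I, was the largest fall at a start region of above-median level, with 39.9, 40.5 and 40.4 CPM in KO MPP, against 49.1, 45.4 and 46.1 CPM in KO LT-HSC, and 35.8, 34.6 and 35.9 CPM in WT MPP, against 45.7, 48.9 and 43.1 CPM in WT LT-HSC (-0.22 ± 0.06 in KO, -0.37 ± 0.06 in WT). Uqcrb and Cox7c fell by 0.20 and 0.17 on the log2 scale in WT, and Uqcr10 fell by 0.15 in KO. Several weak regions away from start sites moved most, such as one past the end of Ndufb7 and beside Tecr (chr8:83572370-83572825), chosen after its values were seen, which held 4.05, 4.10 and 3.88 CPM in KO MPP and 0.771, 0.778 and 0.846 CPM in KO LT-HSC (2.33 ± 0.17). Atp5g1, Ndufv1, which binds NADH and the flavin of complex I, and Ndufaf7 lay nearest to 0 in KO, and Uqcr10, Ndufs7 and the far end of Ndufb6 in WT, all between -0.01 and 0.01.

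**Figure D4:**
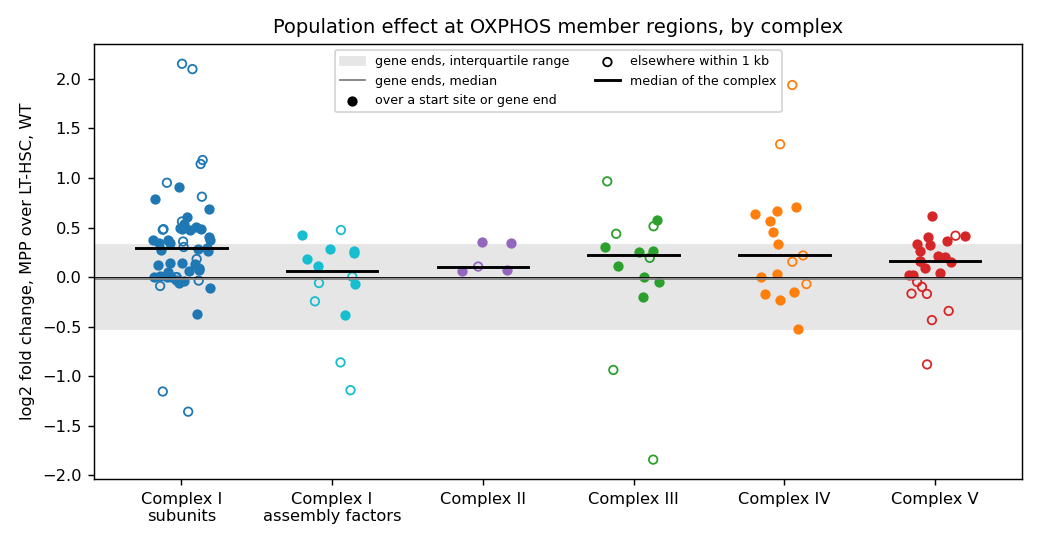
Log2 fold change of MPP over LT-HSC in WT for each tested member, by complex, with filled points for regions over a start site or gene end, open points for the other members, a black line for the median of each complex, and grey for the median and interquartile range of all gene ends. Complex I subunits have a median of 0.29 and lie mostly above 0; the widest departures either way are open points.

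The number of calls between populations stayed near the full count when single libraries were left out, at 72 to 82 in KO (81 in full) and 79 to 86 in WT (83 in full). The model with each library's gene-end share gave 36 calls in KO and 43 in WT, and with the loess offset the WT split was 58 higher and 26 lower in place of 68 and 15. Over all regions the gene-end share gave 42166 higher and 43053 lower in KO and 42670 and 43439 in WT. The main model gave 62099 and 64053 in KO and 64488 and 65514 in WT, and the loess offset 64316 and 64894 in WT. Over start sites alone 51 of 84 members were higher and 6 lower in WT.

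The genotype calls were split by each of the 5 motifs. Of 71 tested members over a promoter window, 18 held an NRF1 motif, and 0 of these were called in either direction in KO against WT LT-HSC or MPP, with median log2 fold changes of 0.08 and 0.07 (edgeR and DESeq2 each called 0, and 3 of 18 had an unadjusted p under 0.05 in each population). Of the 53 without one, 16 were called higher in LT-HSC and 14 in MPP, with medians of 0.15 and 0.12. Between populations, 12 of the 18 were higher in KO MPP and 11 in WT MPP, against 27 and 31 of the 53. Of 19 members with an ETS motif, 4 were higher in KO in each population, against 12 (LT-HSC) and 10 (MPP) of 52 without it. Of 11 with a YY1 motif, 2 were higher in each population, against 14 and 12 of 60 without it. For the CCAAT motif, 11 of 32 members with it were higher in KO LT-HSC and 9 in KO MPP, against 5 and 5 of 39 without it. Of 31 with the SP motif 6 were higher in each population, against 10 and 8 of 40 without it. These counts are descriptions without a test, and only exact matches of each motif were counted. Calls were not split by motif for gene ends or all regions, so no split is shown to be particular to the members.

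Other gene lists give the members a frame. Regions at the ends of mitochondrial ribosomal protein genes were called higher in KO at 24 of 104 in LT-HSC and 27 of 104 in MPP and those of cytosolic ribosomal protein genes at 25 of 114 and 32 of 114, so a share like that of the members was also seen outside oxidative phosphorylation. The other respiratory chain genes, which encode cytochrome c, cytochrome c1 and assembly factors, had 6 of 44 and 7 of 44 higher. Regulators of mitochondrial biogenesis, among them Nrf1, Gabpa, Yy1 and Tfam, had 2 of 24 higher in LT-HSC, and 1 higher and 1 lower in MPP. Glycolysis genes had 1 higher and 1 lower of 34 in LT-HSC, and 6 higher and 1 lower in MPP. Between populations in WT, 57 of 104 mitochondrial and 57 of 114 cytosolic ribosomal regions were higher in MPP. Strong regions were called more often in general: among regions of at least 10 CPM, a level chosen after seeing the data, 23.0% of 87 members and 14.5% of 10400 gene ends were higher in KO LT-HSC, and 21.8% and 17.4% in KO MPP. The figures for the population comparison at that level are given with its results.

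**Figure D5:**
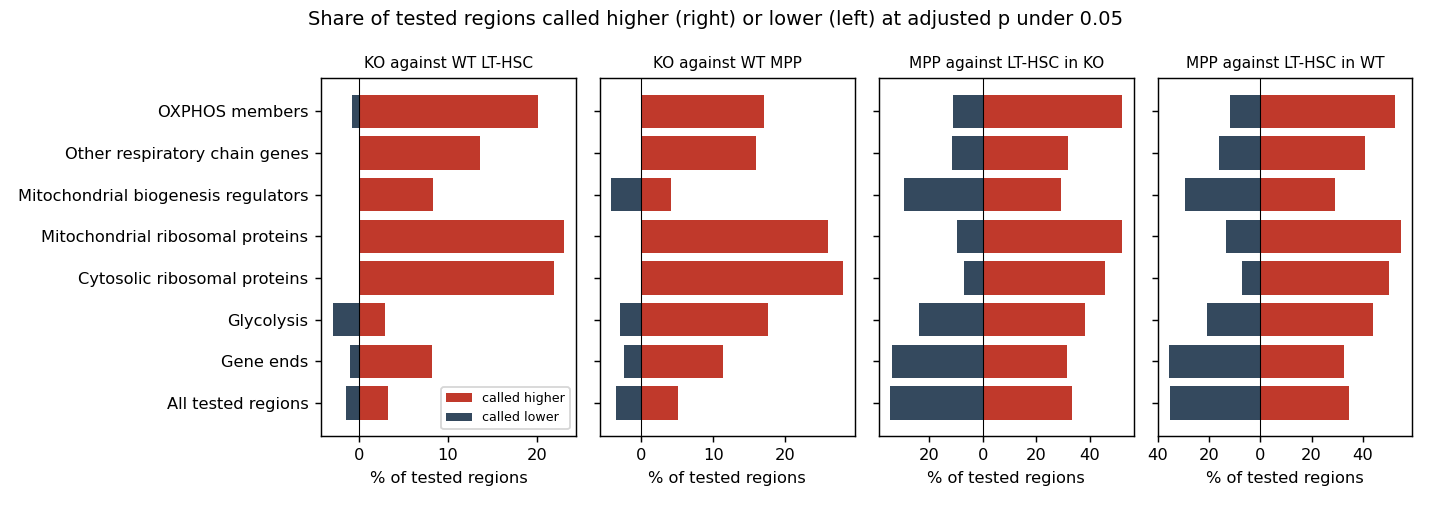
Percentage of tested regions called higher (to the right of 0) or lower (to the left) at an adjusted p under 0.05, for the members, 5 other gene lists, gene ends and all regions, in each of the 4 comparisons. In the genotype comparisons the members (20.2% and 17.1% higher) lie above gene ends (8.20% and 11.4%) and near or below the ribosomal protein lists.

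Subunit forms that are known from particular tissues had open regions as well. Cox7a1, the heart and muscle form of subunit 7a, held 32.5, 29.7 and 29.9 CPM in KO MPP, 27.8, 27.1 and 27.1 CPM in WT MPP, 20.7, 20.02 and 20.9 CPM in KO LT-HSC and 18.7, 17.1 and 19.7 CPM in WT LT-HSC. It was higher in MPP in both genotypes (0.58 ± 0.07 in KO, 0.56 ± 0.07 in WT), and the genotype comparisons gave 0.17 ± 0.07 in MPP and 0.15 ± 0.07 in LT-HSC with no call. Cox4i2, the form of subunit 4 known from lung, went the other way between populations at its stronger region, with 6.47, 5.73 and 6.15 CPM in KO MPP and 9.66, 12.3 and 10.2 CPM in KO LT-HSC (-0.82 ± 0.11), and -0.52 ± 0.11 in WT. A weaker region of Cox4i2 (chr2:152764120-152764566) had log2 fold changes of 0.33 in KO and 0.22 in WT and was not called. Cox6b2, known from testis, was lower in MPP in both genotypes (-0.24 ± 0.07 in KO, -0.23 ± 0.07 in WT). The Cox6a2 region, of 2.12 to 3.04 CPM in MPP and 0.631 to 1.29 CPM in LT-HSC, also lies within 1 kb of the integrin gene Itgad. No region was found within 1 kb of the ends of Cox7a2, Cox7b2, Cox8b, Cox8c, Ndufb4b and Ndufb4c. For Cox7a2, Cox5a and Atp5d an annotated start site lies 3553 to 4612 bp from the nearer gene end, beyond the window, and regions over those start sites had mean levels of 31.5 to 49.0 CPM in the 4 groups; added after seeing the data, none was called in KO against WT. All 3 were called higher in WT MPP than in WT LT-HSC, and those of Cox5a and Cox7a2 in KO, where Atp5d was not (0.14 ± 0.06, edgeR adjusted p = 0.0583).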

How the data were processed

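ATAC-seq counts were measured in 12 libraries, 3 in each of 4 groups. The authors deposited a table of raw counts of reads in 188262 regions, with a column of region lengths, and no value in it is normalized, per the file headers. Per the submitters' processing notes, the tools were MACS2 2.1.1, DESeq2 1.22.1, featureCounts, Bowtie2 and cutadapt, and the build was GRCm38; the order, the settings, any read shift and the making of the region set are not stated. Merging or splitting of nearby peaks sets how many regions a gene has.

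From the counts, edgeR 4.0.16 (R 4.3.3) fitted a quasi-likelihood model with 1 mean per group to all 12 libraries, with TMM scaling, filterByExpr (186373 regions kept, 129 of 130 members) and Benjamini-Hochberg adjustment over all regions kept; calls have an adjusted p under 0.05. The biological coefficient of variation was 8.18%. CPM use effective library sizes, and log2 CPM a prior count of 2. DESeq2 1.42.0 was an alternative, with other scalings, filters, left-out libraries and a replicate block; limma 3.58.1 was used with the loess offset. The model was run on simulated counts with set changes in KO against WT LT-HSC. Of 50 regions with a log2 fold change of 0.5, 7 were called, and of 50 with 1, 41. For -0.5 and -1 these were 7 and 34 of 50, and 3 of 185797 unchanged regions were called. Changed regions were drawn from all levels, so these counts do not give the power at members. Distances are to RefSeq gene ends on GRCm38.

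Called members of a genotype comparison were named, up to 30, and between populations the 10 largest rises and falls of above-median level, the strongest member of each complex and the 3 nearest 0. The members and lists were chosen with earlier results of these data known. Whether equal replicate numbers mark paired samples is not stated in the labels, and no block was used in the main model. Total counts were 22665988 to 48547234 per library; intervals were not set on single values, and SEs come from the fit.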

Additional observations from a re-analysis of the deposited data

Results flagged for a closer look

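At 3 member regions all 3 KO libraries lay above all 3 WT libraries in one population and below them in the other. How many of all regions did so was not counted, so these 3 are not shown to be unusual. They were picked by the same values that are given below. Over all regions KO lay above WT without overlap at 13.4% in LT-HSC and 14.4% in MPP, and below at 10.8% and 13.6%. A region 382 bp from the start side of Atp5d and within 1 kb of Cbarp (chr10:80139080-80139586; Atp5d encodes the delta subunit of ATP synthase) held 7.25, 7.68 and 8.49 CPM in KO MPP, all above the 7.04, 6.59 and 5.89 CPM of WT MPP, with a log2 fold change of 0.26 ± 0.10. In LT-HSC it held 6.63, 6.54 and 6.41 CPM in KO, all below the 7.03, 7.75 and 7.27 CPM of WT, with a log2 fold change of -0.17 ± 0.11. Neither effect was called (edgeR adjusted p = 0.102 and 0.384), and the difference between them, 0.43 ± 0.15, was not called either (edgeR adjusted p = 0.503).

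The start region of Sdha, the flavoprotein subunit of complex II (chr13:74350066-74350512, also within 1 kb of Ccdc127), held 23.0, 22.4 and 23.1 CPM in KO MPP, all above WT MPP, and its log2 fold change there was 0.153 ± 0.069. In LT-HSC its 3 KO libraries lay below the 3 WT libraries, with a log2 fold change of -0.087 ± 0.072. The start region of Uqcrfs1, the Rieske iron-sulfur subunit of complex III (chr13:30545174-30545576), went the other way, with a log2 fold change of -0.113 ± 0.061 in MPP and 0.093 ± 0.063 in LT-HSC. Neither region was called in either population (edgeR adjusted p = 0.168 and 0.532 for Sdha, 0.263 and 0.428 for Uqcrfs1, MPP before LT-HSC). The difference between populations was 0.24 ± 0.10 for Sdha and -0.21 ± 0.09 for Uqcrfs1, and it was not called for either (edgeR adjusted p = 0.593 and 0.604).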

How the results depend on the processing

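Calls in KO against WT LT-HSC (27) were 14 with total-count scaling (13 higher, 1 lower), 9 with the loess offset, 16 with a minimum of 1 CPM in 3 libraries, 3 with the gene-end share in the model and 7 at an adjusted p under 0.01, and ran from 10 to 27 over the left-out libraries. Calls in KO against WT MPP (22) were 12 with the loess offset, 13 with gene ends alone, 3 with the gene-end share and 7 at an adjusted p under 0.01, and ran from 8 to 25 over the left-out libraries. For several of these settings the counts over all regions, which also changed, are given with each comparison. Calls of MPP against LT-HSC were 36 with the gene-end share in KO and 43 in WT. Over start sites alone in KO they were 52 of 84 members. That was 56.0% higher and 5.95% lower, against 51.9% and 10.9% of all 129 members. The interaction gave 0 under every setting run; it was not run on compared groups alone. The replicate block gave 28 calls in LT-HSC, 25 in MPP, 83 and 83 between populations and 0 for the interaction. LT-HSC and MPP libraries of the same number had correlated deviations (r of 0.05 to 0.11), not all over the 0.1 asked of a pairing. Within a genotype each library correlated best with its own number in the other population, a hint from the data and not the design. Between genotypes, where no animal can be shared, r reached 0.066 (KO LT-HSC 1 with WT LT-HSC 2) and 0.058 (KO MPP 3 with WT MPP 1). Those 2 values were above the own-number r of KO LT-HSC 1 (0.054) and KO MPP 3 (0.055). The median log2 fold change of the members was above 0 in all 4 comparisons under every setting run, from 0.05 to 0.14 in LT-HSC, 0.03 to 0.14 in MPP, 0.11 to 0.26 between populations in KO and 0.09 to 0.25 in WT. Some named members changed sign: with the loess offset, Ndufv1 in KO (-0.14), and Uqcr10 (-0.13), Ndufaf8 (-0.027), Cox8a (-0.15) and Atp5g1 (-0.15) in WT, and with the gene-end share, Uqcrq in KO (-0.019), all in MPP against LT-HSC; the cause was not tested. The settings of at least 10 CPM and of 3 added start-site regions were chosen after seeing the data.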
